A study of Mus musculus with 2 samples.

Results

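The genes of cholesterol synthesis and of its control by SREBP were read out by mRNA-seq in mouse intestinal organoids (mIOs) with and without dextran sulfate sodium (DSS), a polymer that damages gut epithelium. The gene set holds 28 members, chosen by symbol from the deposited count table, and each of the 28 was found among its 19294 genes. It comprises 18 synthesis enzymes, 5 control genes and 5 genes of cholesterol transport and storage. The control group was 1 untreated culture at Day 4, and the DSS group was 1 culture given DSS for 4 days. The age of the animals and the DSS concentration used for sequencing are not given in the sources used here. Both cultures carried the Lgr5-EGFP-IRES-creERT2 allele, which drives EGFP and an inducible Cre from the Lgr5 locus of stem cells, and both grew in Matrigel with EGF, Noggin and R-spondin. The crypts came from the jejunum, and whether the 2 cultures came from the same animal is not given in the sources used here. An organoid of this kind is epithelium only, without the immune and connective tissue cells of the gut wall.

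Cells build cholesterol from acetyl-CoA through mevalonate, farnesyl diphosphate, squalene and lanosterol. The transcription factor SREBP-2 turns on nearly the whole pathway. It is held in the endoplasmic reticulum by SCAP and INSIG proteins while sterols are plentiful, and is carried to the Golgi and cleaved when sterols fall. INSIG1 is itself a target of SREBP, so its transcript is commonly read together with those of the enzymes. In the small intestine, enterocytes also take up dietary and biliary cholesterol through NPC1L1 at the brush border and esterify it with SOAT2 for export in chylomicrons.

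The promoters of 4 members are shown because these genes lay at or above a doubling in the DSS library and differ in the sequence elements they carry. SREBP binds sterol regulatory elements and works with NF-Y, which binds the CCAAT box. The elements were searched as TCACNCCAC and as TCACNNGA, a shorter and different sequence with G where the first has C. Each line gives the 250 bases before the transcription start, 5′ to 3′ on the strand of the gene, from RefSeq on GRCm38.p6. Capitals mark a match to one of these motifs on either strand, so that ATTGG is a CCAAT box read on the opposite strand. Hmgcs1 lies at chr13:119690101-119690350 on the plus strand, Insig1 at chr5:28071162-28071411 on the plus strand, Hsd17b7 at chr1:169969206-169969455 on the minus strand and Npc1l1 at chr11:6230246-6230495 on the minus strand.
Hmgcs1: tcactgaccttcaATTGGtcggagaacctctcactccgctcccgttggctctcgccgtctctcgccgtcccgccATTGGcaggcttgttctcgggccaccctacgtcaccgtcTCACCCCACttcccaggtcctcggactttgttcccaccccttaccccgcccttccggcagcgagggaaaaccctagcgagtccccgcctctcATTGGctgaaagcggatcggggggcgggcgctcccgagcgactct
Insig1: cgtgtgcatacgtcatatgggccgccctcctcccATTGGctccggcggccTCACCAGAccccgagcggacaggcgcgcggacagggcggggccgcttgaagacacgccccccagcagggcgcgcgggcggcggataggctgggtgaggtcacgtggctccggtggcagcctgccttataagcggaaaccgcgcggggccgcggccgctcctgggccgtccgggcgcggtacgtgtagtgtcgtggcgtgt
Hsd17b7: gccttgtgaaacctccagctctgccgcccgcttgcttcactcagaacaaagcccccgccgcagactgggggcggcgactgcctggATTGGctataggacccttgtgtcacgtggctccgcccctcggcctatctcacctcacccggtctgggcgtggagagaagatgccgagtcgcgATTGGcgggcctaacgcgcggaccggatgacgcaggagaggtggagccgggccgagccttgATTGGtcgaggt
Npc1l1: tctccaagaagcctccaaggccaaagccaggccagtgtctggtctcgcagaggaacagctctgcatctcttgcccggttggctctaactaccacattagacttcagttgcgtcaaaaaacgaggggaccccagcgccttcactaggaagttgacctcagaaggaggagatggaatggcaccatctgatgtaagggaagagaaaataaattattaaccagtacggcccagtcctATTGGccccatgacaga

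RefSeq start windows, which run from 250 bases before the start to 50 bases after it, were matched for 22 of the 28 members. Fdps, Fdft1, Sqle, Stard4, Npc1 and Soat2 had no window and were not searched. The element TCACNCCAC was found in 1 of these 22 genes, Hmgcs1, where it begins 137 bases before the start, between CCAAT boxes. It was held by 1.24% of all 32851 windows and by 1.49% of the 12057 scored genes that have a window, scored meaning that either library gave 10 counts or more. The shorter TCACNNGA was found in Idi1, Dhcr7, Insig1, Insig2 and Srebf1, 5 of the 22, in 12.1% of all windows and in 13.5% of scored genes. A CCAAT box was found in 20 of the 22 genes, missing from Acat2 and Scap. It occurred in 37.4% of all windows and in 42.9% of scored genes. A GC box (GGGCGG), the site of Sp1, was also found in 20 of the 22 genes, against 35.7% of all windows and 63.8% of scored genes. These are matches of letters, not measured binding sites. In the 4 printed promoters no matches overlap each other.

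Library totals were 65493032 counts for the control and 59746968 for DSS. Counts were divided by library totals adjusted with TMM factors, which assume that most genes do not differ between libraries, and are given as CPM, the counts scaled to a common library size. The log2 ratio compares the CPM of the DSS library with that of the control, so that 1 is a doubling, and its 95% Clopper-Pearson interval covers counting error only. Each condition is a single library without replicates, so the conditions were not tested against each other, and a gene is called here when its log2 ratio is at least 1 or at most -1. Each member had at least 1320 counts in each library, which makes the counting intervals narrow, and variation between cultures was not measured. The median over the 17235 scored genes was -0.06. Scaling by total counts alone would lower every log2 ratio by 0.26.

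Most of the cholesterol genes had a higher value in the DSS library. The members were chosen with earlier results of these data known, so the shares below describe the set and do not test it. Of the 28 members, 23 had a log2 ratio above 0 and 5 below 0, where 48% of all scored genes lay above 0. A total of 8 members, 28.6%, rose past a doubling, against 19.3% of all scored genes, and no member fell past a log2 ratio of -1, against 20.2% of all scored genes. The median of the members was 0.69, and their range ran from -0.67 for Npc2 to 2.59 for Npc1l1. The counting interval lay above 0 for 23 members (82.1%) and below 0 for 5 (17.9%), where the shares over all scored genes were 38.7% and 42.7%. Under scaling by total counts, 3 members stayed past a doubling (Npc1l1, Insig1 and Insig2), which is 10.7% of the members against 15.4% of all scored genes at that scaling, so the share of members past a doubling lay above that of all genes with TMM factors and below it with total counts. With total counts, 18 members (64.3%) had an interval above 0, against 29.8% of all scored genes, and Nsdhl, Ebp and Npc1 turned to values between -0.08 and -0.06. Pmvk and Soat2, both at 0.99, lay just under the line, and Msmo1, at 1.003, just over it.

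**Figure D1:**
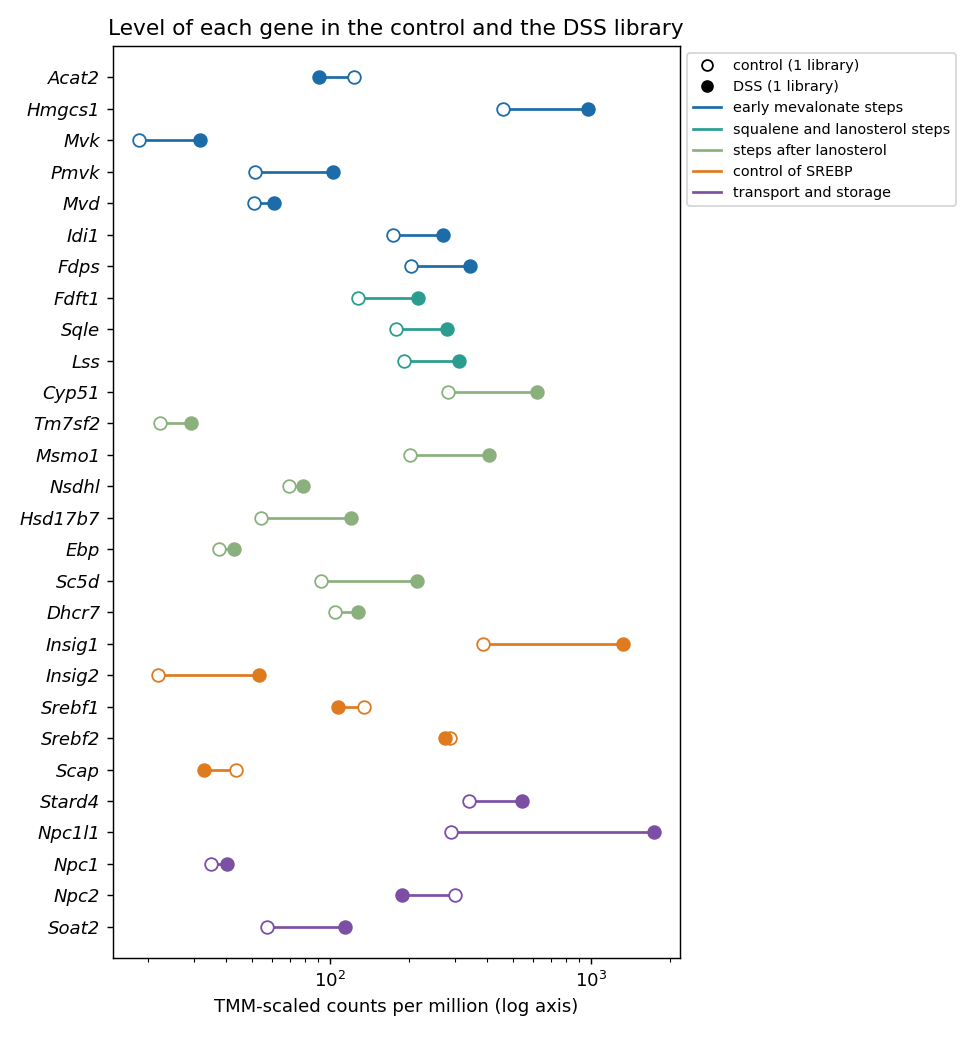
Level of each of the 28 genes in TMM-scaled CPM on a log axis, with the control library as an open and the DSS library as a filled circle, 1 library each, and colors for the role of the gene. CPM is not divided by transcript length, so the plot compares libraries within a gene and not genes with each other. The longest line to the right is that of Npc1l1, from 289 to 1739 CPM, and Npc2 moves left, from 301 to 189 CPM.

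Among the early enzymes, which carry acetyl-CoA to farnesyl diphosphate, 6 of 7 lay above 0 and the thiolase at the entry did not. Acat2, the cytosolic acetyl-CoA thiolase, had 8795 control and 4948 DSS counts, a log2 ratio of -0.44 (95% interval -0.49 to -0.39). Its close copy Acat3 can share reads with it, and the 2 genes summed were also at -0.44. Hmgcs1, the cytosolic HMG-CoA synthase that feeds the mevalonate step, rose from 32917 to 53180 counts, or from 459.9 to 973 CPM. Its log2 ratio was 1.08 (95% interval 1.06 to 1.10). The thiolase and the synthase, which act one after the other, lay on opposite sides of 0.

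The kinases and the decarboxylase that follow differed among themselves. Mvk, mevalonate kinase, had 1320 and 1740 counts (log2 ratio 0.79). Pmvk, phosphomevalonate kinase, had 3696 and 5623 counts and a ratio of 0.99, and its 95% interval of 0.93 to 1.05 spans the line of a doubling. Mvd, the decarboxylase that yields isopentenyl diphosphate, had nearly level counts, 3648 and 3332, which after TMM scaling gave a log2 ratio of 0.26 (95% interval 0.19 to 0.33). Idi1, the isomerase of the isoprene unit, had 12466 and 14779 counts and a log2 ratio of 0.63. Fdps, farnesyl diphosphate synthase, had 14664 and 18713 counts and a log2 ratio of 0.74. The median of the 7 early genes was 0.74.

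The 3 enzymes from squalene to lanosterol had ratios close to each other. Fdft1, squalene synthase and the branch point toward sterols, had 9163 control and 11828 DSS counts, for a log2 ratio of 0.76. Sqle, squalene epoxidase and a known control point of the pathway, had 12742 and 15332 counts, for 0.66. Lss, the cyclase that forms lanosterol, had 13757 and 16989 counts, for 0.69. These 3 ratios lay within 0.66 to 0.76 and none was past a doubling. That range is not particular to them, since Fdps, at 0.74, and Stard4, at 0.68, also lay in it.

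After lanosterol, all 8 enzymes lay above 0 with TMM scaling and fell into a higher and a lower group, while Nsdhl and Ebp turned negative with total counts. Cyp51, lanosterol demethylase, rose from 20320 to 34060 counts, at 284 and 623 CPM, with a log2 ratio of 1.13. Msmo1, the sterol methyl oxidase that starts removal of the extra methyl groups left after Cyp51 has acted, rose from 14444 to 22119 counts, just past a doubling. Hsd17b7, the ketosteroid reductase that completes each round of that removal, rose from 3870 to 6565 counts, with a log2 ratio of 1.15. Sc5d, the desaturase near the end of the pathway, rose from 6604 to 11799 counts and had the highest ratio of any of the 18 enzymes, 1.23 (95% interval 1.18 to 1.27).

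The other 4 enzymes of this stretch lay closer to their control level. Nsdhl, the decarboxylating dehydrogenase that works between Msmo1 and Hsd17b7, had 4993 and 4297 counts, for a log2 ratio of 0.17 (95% interval 0.11 to 0.23). Ebp, the sterol isomerase, had 2689 and 2343 counts, for 0.19 (95% interval 0.11 to 0.27). Both genes lie on the X chromosome. Dhcr7, the final reductase of one branch, had 7435 and 6987 counts and a log2 ratio of 0.30, and Tm7sf2, a sterol reductase acting just after Cyp51, had 1599 and 1600 counts and a log2 ratio of 0.39. The enzymes of the methyl removal cycle did not share one ratio, with Msmo1 and Hsd17b7 at 1.003 and 1.15 and Nsdhl at 0.17.

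**Figure D2:**
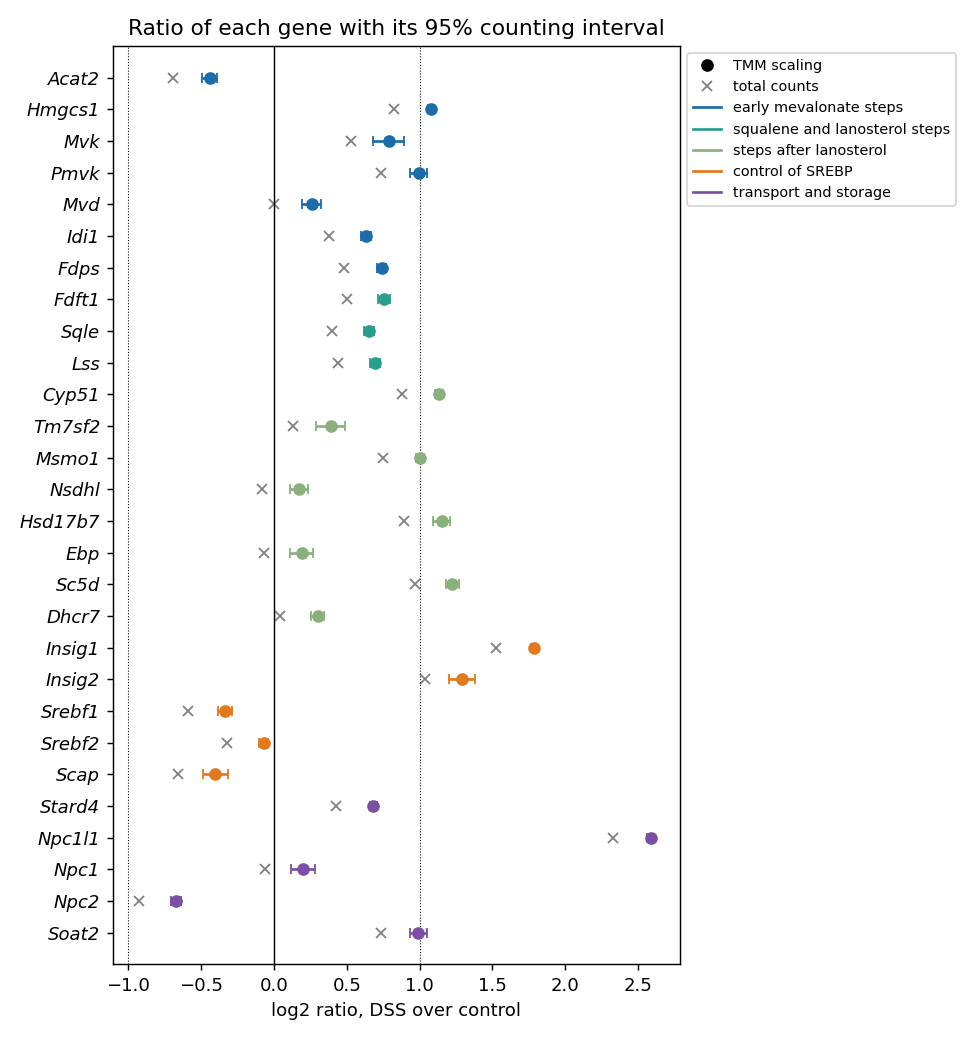
Log2 ratio of DSS over control for each gene in pathway order, with circles and bars for TMM scaling and its 95% counting interval, gray crosses for scaling by total counts, and dotted lines at -1 and 1. Every circle from Hmgcs1 to Dhcr7 lies above 0 (the crosses of Nsdhl and Ebp do not), the 3 enzymes from Fdft1 to Lss sit within 0.66 to 0.76, and Acat2, Srebf1, Srebf2, Scap and Npc2 lie below 0.

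Summed over the 18 enzymes, the pathway took 0.267% of all counts in the control library and 0.395% in the DSS library. In scaled units this was 2447 and 4321 CPM, a log2 ratio of 0.82 (95% interval 0.81 to 0.83). With total counts the same sum gave 0.56. A ratio between genes of the same libraries does not depend on the scaling. By that measure, Sc5d gained on Lss by 0.53 on the log2 scale, with a Woolf interval from 0.48 to 0.59, and Hmgcs1 gained on Mvk by 0.29 (95% interval 0.19 to 0.40).

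Levels of different genes can be compared only per length of transcript. Using exon lengths of GENCODE M21, Insig1, Fdps and Hmgcs1 led the control library at 142, 141 and 132 CPM per kilobase, followed by Msmo1 at 98.7. In the DSS library, Insig1 led at 490.2, then Npc1l1 at 389, Hmgcs1 at 279, Fdps at 236, Msmo1 at 198 and Cyp51 at 158. The lowest levels per kilobase in the control were those of Npc1 at 6.71, Insig2 at 7.38 and Mvk at 9.24. The exon model behind the deposited counts is not given in the sources used here, so close neighbors in this order, such as Insig1 and Fdps in the control, are not separated.

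The control genes split between the INSIG anchors and the machinery they hold. Insig1, which retains SCAP in the endoplasmic reticulum, rose from 27483 to 72282 counts, or from 384 to 1322 CPM. Its log2 ratio was 1.78 (95% interval 1.76 to 1.80), and 9.66% of all scored genes had a ratio as high. Insig2, the other anchor of the family that is not a classical SREBP target, rose from 1560 to 2914 counts, with a log2 ratio of 1.29 (95% interval 1.20 to 1.38). Against Insig2, Insig1 gained 0.49 on the log2 scale (95% interval 0.40 to 0.58).

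The transcription factors and their escort did not follow. Srebf2, which encodes SREBP-2, had 20656 and 15028 counts and a log2 ratio of -0.07, which turned to 0.020 with upper quartile factors. Srebf1, which encodes the SREBP-1 forms that favor fatty acid synthesis, had 9681 and 5863 counts and a ratio of -0.33 (95% interval -0.38 to -0.29). Scap, the escort that carries SREBP to the Golgi, had 3108 and 1796 counts and a ratio of -0.40 (95% interval -0.49 to -0.32). None of these 3 was past a log2 ratio of -1. Cleavage of SREBP, on which its activity depends, is not read by transcript counts, and the isoforms of Srebf1 are not separated in gene counts.

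Of the transport and storage genes, the importer Npc1l1 had the highest ratio of all 28 members. It rose from 20707 to 95060 counts, or from 289 to 1739 CPM. The log2 ratio was 2.59 (95% interval 2.57 to 2.61), and 4.72% of all scored genes had a ratio as high. Soat2, the enterocyte enzyme that esterifies absorbed cholesterol, had 4100 and 6223 counts, with a log2 ratio of 0.99 (95% interval 0.93 to 1.05). Stard4, a soluble sterol carrier and SREBP target, had 24336 and 29828 counts and a log2 ratio of 0.68.

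The lysosomal pair that exports cholesterol taken up with lipoproteins diverged. Npc2, the soluble lysosomal carrier, had 21572 control and 10329 DSS counts, the lowest ratio of the members at -0.67 (95% interval -0.71 to -0.64). Npc1, its membrane partner, had 2507 and 2195 counts and a ratio of 0.20 (95% interval 0.11 to 0.28), or -0.06 with total counts. Against Npc1, Npc2 had lost 0.87 on the log2 scale (95% interval of the difference -0.96 to -0.78), a value that no library scaling alters.

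**Figure D3:**
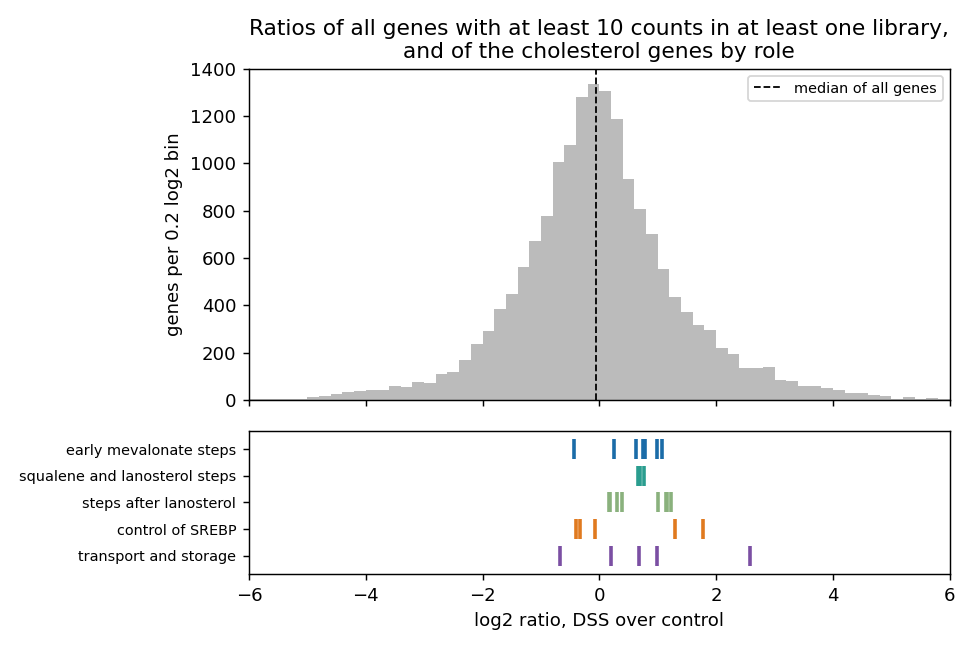
Upper panel, histogram of log2 ratios of the 17235 scored genes, in bins of 0.2, cut at -6 and 6, with a dashed line at their median of -0.06. Lower panel, the 28 cholesterol genes as ticks by role, which range from -0.67 to 2.59, with only Npc1l1 above 2.

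Further genes of sterol and lipid handling were counted from 5 lists set by function. Of 15 other genes of isoprenoid and sterol synthesis and their electron donors, 14 were in the table, with a median log2 ratio of -0.02, 2 genes (14.3%) past a doubling and 2 (14.3%) past a halving, below the 19.3% and 20.2% of all scored genes. Cyb5r3, the reductase of cytochrome b5 that feeds electrons to Msmo1 and Sc5d, rose from 11084 to 46215 counts (log2 ratio 2.45). Cyb5b, an outer mitochondrial cytochrome b5, rose by 1.73. Lbr, a nuclear envelope protein with sterol reductase activity like that of Tm7sf2, fell from 11466 to 2238 counts (log2 ratio -1.97). Acat1, the mitochondrial thiolase, fell by 1.17 on the log2 scale.

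The 21 other control genes include the SREBP proteases, the ligases that degrade sterol enzymes and the NF-Y subunits. Their median was 0.00, with a range from -0.99 to 0.89. None was past a doubling or halving, against 19.3% and 20.2% of all scored genes. Of 25 other uptake and transport genes, 24 were in the table, with a median of 0.02, 5 (20.8%) at 1 or more and 4 (16.7%) at -1 or less, shares near those of all scored genes. Gramd1b, which moves cholesterol from the plasma membrane to the endoplasmic reticulum, rose from 800 to 4891 counts (log2 ratio 3.001). Lipa, the lysosomal acid lipase, rose from 1396 to 3984 counts, a ratio of 1.90. Soat1, the broadly expressed relative of Soat2, fell from 16488 to 3213 counts, a ratio of -1.97. Per kilobase of exon, Soat2 and Soat1 were close in the control, at 25.9 and 27.5 CPM, and apart in the DSS library, at 51.5 and 7.02 CPM. The closeness depends on the exon lengths used, 2208 bases for Soat2 and 8377 for Soat1. Their control counts were 4100 and 16488. Soat2 gained on Soat1 by 2.96 on the log2 scale (95% interval 2.88 to 3.04).

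The list of LXR, the sterol-sensing nuclear receptor, with efflux and oxysterol genes, lay on the same side as the synthesis enzymes. Of its 20 genes, 17 were in the table, with a median of 0.60. Of the 17, 14 (82.4%) lay above 0, against 48% of all scored genes. At 1 or more were 7 (41.2%), against 19.3% of all scored genes, and none was at -1 or less, against 20.2%. Abcg1, an efflux transporter, had only 16 and 99 counts and a ratio of 3.02 with a wide 95% interval of 2.25 to 3.88. Abca7 rose by 1.81 and Cyp27a1, a sterol hydroxylase, by 1.999. Mylip, an LXR target that degrades lipoprotein receptors and belongs to both this and the uptake list, had 86 and 218 counts and a ratio of 1.73.

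The fatty acid genes commonly assigned to SREBP-1 had a median below 0. Of 20 genes, 18 were in the table, with 13 negative and 5 positive ratios, and a median of -0.56. Of the 18, 2 (11.1%) were past a doubling, below the 19.3% of all scored genes, and 4 (22.2%) past a halving, near the 20.2% of all scored genes. Fads1, a desaturase of polyunsaturated fatty acids, fell from 18636 to 1237 counts (log2 ratio -3.52, 95% interval -3.61 to -3.44). Fads2, which acts beside it, fell from 18479 to 3358 counts, a ratio of -2.07. Acacb, with 311 and 60 counts, was at -1.99, while Pnpla3, with 101 and 204 counts, was at 1.40. No test compared this list with the cholesterol genes.

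**Figure D4:**
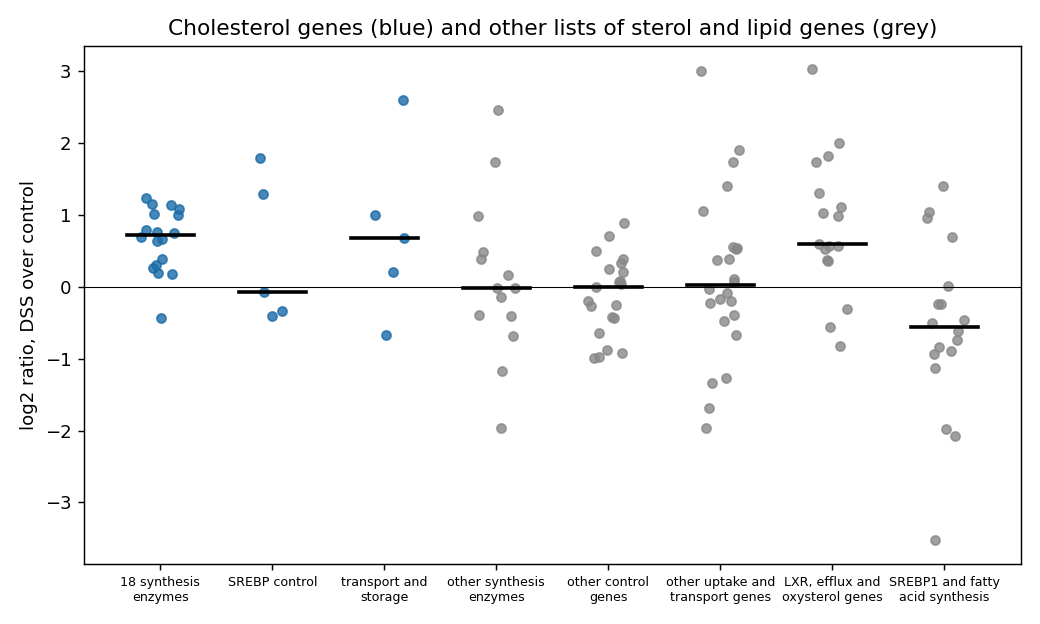
Log2 ratio of DSS over control for each gene, as points spread sideways only for legibility, with the median of each group as a bar, for the 3 sets of cholesterol genes in blue and the 5 other lists in gray. The 18 enzymes center at 0.72 and the fatty acid list at -0.56, with Fads1 at -3.52 as its lowest point.

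Markers of cell types moved along with these genes. All 8 enterocyte markers lay above 0, and their summed level went from 2009 to 20295 CPM. All 6 goblet markers lay above 0 (753 to 11359 CPM), as did all 6 enteroendocrine markers (822 to 4240 CPM). All 6 stem cell markers lay below 0, from 1097 to 198 CPM in sum, as did all 6 cycling markers, from 1221 to 231 CPM, all 6 Paneth markers, from 513 to 243 CPM, and all 5 tuft cell markers, from 9.04 to 4.46 CPM. By RT-PCR of DSS-treated mIOs, the paper reports lower Lgr5 and Lyz, and similar levels of Vil1, Muc2 and Chga. In these libraries Lgr5 was at -3.78 and Lyz1 at -1.06, but Vil1 was at 1.25, Muc2 at 4.98 and Chga at 2.60. Whether both assays used the same cultures is not given in the sources used here. In bulk samples, fewer cells of a type and less RNA per cell cannot be told apart. The part of these cell type shifts in the values of Npc1l1, Soat2 and the synthesis enzymes was not tested.

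Markers of cells from outside the epithelium were also read. The table lists only genes with a count in both libraries, so an absent marker may still have had reads in 1 library. Of 6 mesenchymal markers, 4 were absent from the table, and the other 2, Col1a1 and Pdgfra, summed to 0.447 control CPM and 0.567 DSS CPM. Of 6 immune markers, 4 were absent, and Itgam and Lyz2 summed to 7.15 and 12.8 CPM. Of 6 hepatocyte markers, 2 were absent, and the summed level of 325 and 2681 CPM came mostly from Apob, which enterocytes also express.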

How the data were processed

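mRNA-seq was analyzed from 1 control and 1 DSS-treated culture of mIOs. The stranded poly(A) libraries were deposited as unnormalized read counts for each gene, and the files labeled FPKM hold the same counts. The submitters' processing notes name HISAT2 and StringTie, and the genome build is not given in the sources used here. All 19294 listed genes have at least 1 count in both libraries.

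Counts were scaled with TMM factors (edgeR 4.0.16, R 4.3.3), 1.09 for the control and 0.915 for the DSS library. Log2 ratios carry 95% Clopper-Pearson intervals, and differences between genes carry Woolf intervals. All intervals cover counting error only. They treat each count as an independent molecule, which PCR duplicates are not, so they may be too narrow even for that error. With 1 library per group no test was made. Shares over all genes use the 17235 genes that reached 10 counts in either library. Of the other lists, the genes named are at most 4 per list, those with the largest absolute log2 ratio at 1 or more and at least 50 counts in a library. The members and lists were chosen with earlier results of these data known. The computation was tested on simulated data. Alternatives used total counts, size factors of DESeq2 1.42.0, upper quartile factors, centering on the median, a prior count of 2, thinning, other filters and means. Python 3.11.15, numpy 2.4.6, scipy 1.17.1, pandas 2.3.3 and matplotlib 3.10.9 were used.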

Additional observations from a re-analysis of the deposited data

How the results depend on the processing

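DESeq2 size factors, thinning of the deeper library, a prior count of 2 and the filters on low counts left the counts of members and their medians within the counting error of the main values. Scaling by total counts moved every value down by one constant. With it, 3 members (10.7%) were at a log2 ratio of 1 or more, below the 15.4% of all genes, 18 members in place of 23 had an interval above 0, and the median was 0.43 over all members, 0.48 for the early steps, 0.44 for the squalene and lanosterol steps, 0.44 for the steps after lanosterol, -0.33 for control genes and 0.43 for transport and storage. The summed enzymes were at 0.56, and the other lists at -0.28 (synthesis), -0.26 (control), -0.24 (uptake and transport), 0.34 (LXR and efflux) and -0.81 (fatty acids). With upper quartile factors the same medians were 0.78 over all members, 0.83, 0.78, 0.79, 0.020 and 0.77 by role, and the sum was at 0.91. Centering on the median of all genes gave 0.75 over all members, 0.80, 0.75, 0.75, -0.013 and 0.74 by role, and 0.88 for the sum. Means in place of medians gave 0.63 over all members, 0.58 for the early steps, 0.45 for control genes and 0.76 for transport and storage. The control genes are 5, with Insig1 and Insig2 above and 3 below 0, so their mean and median differ in sign. Upper quartile factors and centering each put 10 members (35.7%) past a doubling, where the shares of all genes also went up, to 21.2% and 20.5%. No paired analysis was possible because each group has 1 library. Depth does not limit the members, while the lack of replicates leaves the spread between cultures unmeasured.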
